A study of Rattus norvegicus with 18 samples.

Results

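The RNA of 8 genes was followed in the cut sciatic nerve of the rat: Fos, Fosb, Fosl1 and Fosl2 of the FOS family, Jun, Junb and Jund of the JUN family, and Atf3. They were chosen by name, with earlier results of these arrays known, so their courses are given as a description without P-values. The 8 genes were carried by 10 of the 41012 probes on the array, out of 35279 gene names in all, and all 10 probes were well above background on all 18 arrays. The arrays held RNA of the proximal segment of the sciatic nerve, the stump still joined to the spinal cord, from adult male Sprague-Dawley rats of 180 to 220 g with no other treatment named. A 1 cm piece of nerve was resected, and 0.5 cm of the proximal stump was taken at 6 time-points, from 0 h through 0.5 h, 1 h and 3 h to 6 h and on to 9 h, with 3 arrays for each. The 0 h group was the reference, no sham operation was analysed here, and the labels do not say whether an array held 1 rat or a pool, so the spread between arrays may be partly technical.

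AP-1 is a transcription factor made of pairs of basic leucine zipper (bZIP) proteins. FOS proteins have to pair with a partner, most often a JUN protein, whereas JUN proteins can also pair with each other, and ATF3 pairs with JUN proteins and other bZIP factors. Many of these genes are immediate early genes, which are transcribed within minutes of a stimulus from factors already present in the cell. In injured nerve, c-Jun in Schwann cells (SCs) is known for its part in the repair program, and ATF3 is a widely used marker of injured neurons and SCs. Cell bodies of neurons are not in a nerve segment, so the RNA of the segment comes mainly from SCs, fibroblasts, endothelium and blood-borne cells, with whatever RNA the axons held.

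The zipper itself was what some of the probes measured. The probe for Fos and 1 of the probes for Jund are shown because both lie in the coding part of the zipper; capitals mark leucine codons that repeat at every 7 codons of an open frame, and each probe held 3 of them. The probe for Junb is shown because it runs to the end of the coding sequence, with the stop codon in capitals. The last probe is listed under Jund in the files but lies on the opposite strand, and no letters are in capitals.
Fos: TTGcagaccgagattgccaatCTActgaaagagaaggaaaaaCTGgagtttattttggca
Jund: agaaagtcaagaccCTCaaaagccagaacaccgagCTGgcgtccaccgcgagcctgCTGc
Junb: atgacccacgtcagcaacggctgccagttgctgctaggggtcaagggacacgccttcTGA
Jund, opposite strand: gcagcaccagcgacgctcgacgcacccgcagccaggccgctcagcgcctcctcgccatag
On the rn4 build used by the files these lie at chr6:109561099-109561158 on the plus strand, chr16:19240333-19240392 on the minus strand, chr19:24832781-24832840 on the plus strand and chr16:19241193-19241252 on the plus strand. The files give the probe of Jund that is reported below at chr16:19239704-19239763 on the minus strand, that of Jun at chr5:115358764-115358823 on the minus strand and that of Atf3 at chr13:107191691-107191749 on the minus strand. Those of Fosb, at chr1:78668672-78668731 on the minus strand, and Fosl1, at chr1:208098827-208098886 on the plus strand, ran the same way as the genes, and the files give no position for that of Fosl2. Over the array, 94.5% of 13108 probes with a position and a gene in RefSeq ran the same way as their gene.

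Promoter sequences were at hand for 5 of the 8 genes: Fosb, Fosl1, Fosl2, Junb and Jund (RefSeq, build GRCr8). Those of Fosl1, Junb and Jund are shown because they held TGACG on either strand, the core of the element bound by CREB and ATF proteins, in the 250 bases before the start of the gene. Capitals mark each match.
Fosl1, chr1:212183635-212183884, plus strand: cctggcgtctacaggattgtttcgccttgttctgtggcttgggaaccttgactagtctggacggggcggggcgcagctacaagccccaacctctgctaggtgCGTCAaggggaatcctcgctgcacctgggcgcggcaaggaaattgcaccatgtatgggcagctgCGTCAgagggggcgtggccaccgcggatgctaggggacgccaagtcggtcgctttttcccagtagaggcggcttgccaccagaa
Junb, chr19:40080876-40081125, plus strand: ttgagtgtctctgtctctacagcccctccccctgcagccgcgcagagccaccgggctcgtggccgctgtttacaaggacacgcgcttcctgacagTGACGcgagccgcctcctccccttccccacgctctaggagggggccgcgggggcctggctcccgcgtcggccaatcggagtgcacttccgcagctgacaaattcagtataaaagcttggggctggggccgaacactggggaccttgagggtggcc
Jund, chr16:18769772-18770021, minus strand: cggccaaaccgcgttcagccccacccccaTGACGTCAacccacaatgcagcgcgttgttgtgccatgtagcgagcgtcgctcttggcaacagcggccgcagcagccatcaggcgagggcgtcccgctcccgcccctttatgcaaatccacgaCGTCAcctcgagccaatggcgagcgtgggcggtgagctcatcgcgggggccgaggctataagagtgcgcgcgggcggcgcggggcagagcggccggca
TGACG occurred on either strand in 18.2% of the 33469 rat promoters of the same length. Jund alone of the 5 held the full palindrome TGACGTCA, which overlaps TGACG and was present in 1.59% of promoters. The AP-1 site TGACTCA, read on both strands, was found in none of the 5 and in 4.05% of promoters, and the CArG box bound by SRF in none of the 5 and in 1.5%. TATAAA on either strand was found in the promoters of Fosb and Junb, and in 12.9% of promoters. These are matches of letters in a short window and not sites of binding.

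Values are log2 processed signals relative to the 75th percentile of the array, 1 unit being a 2-fold difference, and they compare time-points of the same probe and not genes with each other. A fold is the difference between the means of 3 arrays turned back from the log2 scale, and SE is limma's standard error of that difference. Over all 32111 probes tested the median difference from 0 h was between 0.00 and 0.03 at every time-point. The 0 h and 0.5 h arrays shared a scan day and all later arrays but 1 shared another, so for 1 h to 9 h against 0 h the time-point and the scan day cannot be told apart. Comparisons among the time-points from 1 h to 9 h lay within 1 scan day, apart from replicate 3 of 9 h, which had a day of its own. Each slide held arrays of 1 time-point only. The groups of 0 h, 1 h and 6 h lay on 1 slide each, so slide and time-point cannot be told apart among them, and the other groups spanned 2 slides each. In a tissue, fewer cells of a type and less RNA per cell cannot be told apart.

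**Figure D1:**
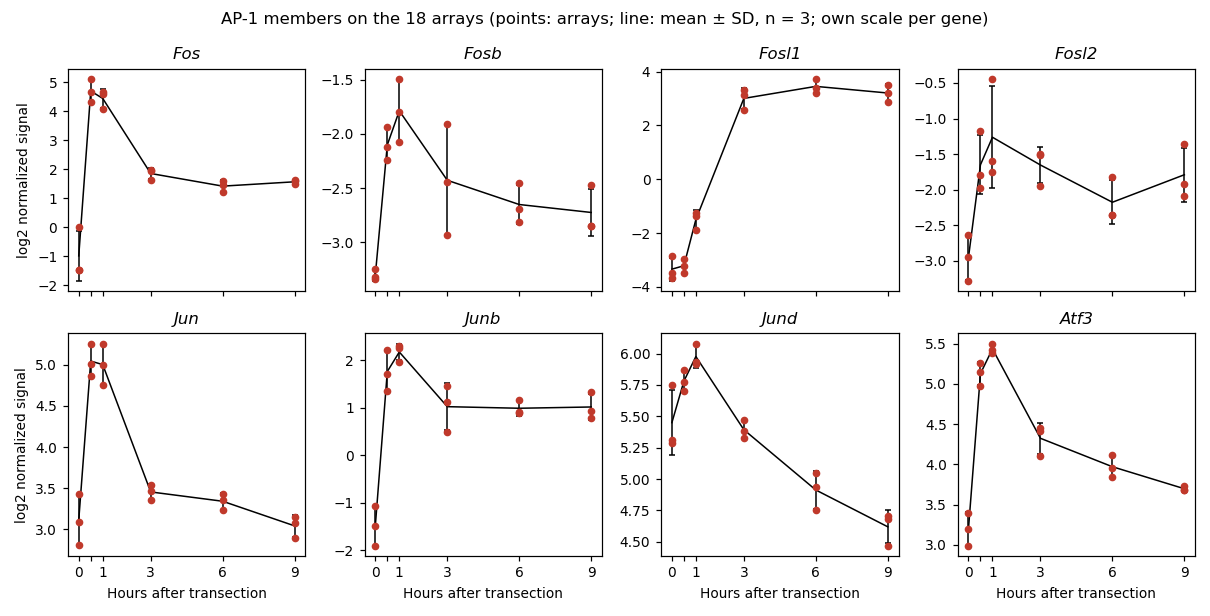
Log2 normalized signal of the 8 genes on each of the 18 arrays against hours after transection. Points are arrays, lines and bars the mean and SD of 3 arrays, and each gene has its own vertical scale; Fos and Jun stood highest at 0.5 h, Fosl1 at 6 h and the others at 1 h.

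Fos, the founding member of the family, rose most at 0.5 h. Its 3 arrays of 0 h read -1.49, 0.00 and -1.49, and those of 0.5 h read 5.13, 4.67 and 4.31, a 51.8-fold difference (5.69 on the log2 scale, SE 0.33). Every array of 0.5 h stood far above every array of 0 h, although replicate 2 of 0 h was itself well above the other two. At 1 h the arrays read 4.59, 4.07 and 4.68, overlapping those of 0.5 h. At 3 h they had come down to 1.64, 1.98 and 1.94, 6.04-fold below 1 h and apart from it. By 6 h they were 1.35-fold lower again, with no overlap. The means were 1.42 ± 0.20 at 6 h and 1.57 ± 0.06 at 9 h (SD, n = 3), with overlap, and at 9 h Fos was still 5.9-fold above 0 h, with no overlap. Without replicate 2 of 0 h the difference at 0.5 h was 6.19.

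Fosb, a close relative of Fos, had a smaller range, with its highest mean at 1 h and all 3 arrays first below those of 1 h at 6 h. Its arrays read -3.32, -3.24 and -3.34 at 0 h and -1.94, -2.24 and -2.12 at 0.5 h, a 2.3-fold difference (SE 0.22 on the log2 scale). At 1 h they read -1.80, -2.07 and -1.49, 2.85-fold above 0 h and overlapping 0.5 h. The 3 arrays of 3 h were widely spread, at -2.93, -2.44 and -1.91, so a fall from 1 h could be told from the spread only at 6 h, when the arrays read -2.45, -2.81 and -2.69. At 9 h the mean was -2.72 ± 0.22 (SD, n = 3), 1.49-fold above 0 h, and all 3 arrays were still above those of 0 h.

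Fosl1, which encodes FRA-1, a FOS protein without the strong activation domain of c-FOS, came late. At 0 h its arrays read -2.86, -3.48 and -3.69 and at 0.5 h -2.95, -3.47 and -3.23, so the groups overlapped. It left the level of 0 h at 1 h, with -1.89, -1.36 and -1.24 (3.59-fold, SE 0.27 on the log2 scale). Between 1 h and 3 h, within 1 scan day, it went up a further 22.7-fold to 2.56, 3.32 and 3.14. At 6 h the arrays read 3.74, 3.41 and 3.21, 111-fold above 0 h, and at 9 h 3.22, 2.88 and 3.52, 93.8-fold above 0 h. The arrays of 3 h, 6 h and 9 h overlapped, so a fall by the end of the series could not be told from the spread between arrays, the mean at 9 h being 1.18-fold lower than at 6 h. The size of the change depended on the background correction: with normexp the log2 differences from 0 h for the last 3 time-points were 5.51, 6.17 and 5.91, against 6.35, 6.79 and 6.55.

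Fosl2, which encodes FRA-2, was above 0 h at all later time-points with large differences between arrays. The arrays read -2.64, -2.94 and -3.28 at 0 h and -1.18, -1.97 and -1.80 at 0.5 h, a 2.46-fold difference (SE 0.33 on the log2 scale). At 1 h they read -1.60, -1.75 and -0.44, and replicate 3 alone lifted that mean to the highest of the series, 3.22-fold above 0 h. The arrays of 3 h read -1.95, -1.51 and -1.50, those of 6 h -2.35, -2.36 and -1.82 and those of 9 h -1.92, -2.09 and -1.36. Of these only 6 h stood apart from 1 h, and without replicate 3 of 1 h the difference of 3 h from 1 h went from -0.39 to 0.02. At 6 h Fosl2 was 0.78 above 0 h (SE 0.33) and was not called.

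Jun, which encodes c-Jun, had the shortest course of the genes that were up at 0.5 h. Its probe read 3.09, 3.43 and 2.81 at 0 h, and 5.26, 5.01 and 4.87 at 0.5 h, a 3.82-fold difference (SE 0.16 on the log2 scale). At 1 h the arrays read 5.26, 5.0 and 4.75, and the groups of 0.5 h and 1 h overlapped. At 3 h they read 3.35, 3.54 and 3.47, 2.93-fold below 1 h and overlapping 0 h. At 9 h the arrays read 3.08, 2.89 and 3.15, with a mean 0.07 below that of 0 h on the log2 scale, which became 0.09 above it without replicate 2 of 0 h. The early rise of Jun was thus seen on all 6 arrays of 0.5 h and 1 h, and from 3 h on no group was apart from 0 h.

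Junb, often a weaker activator than c-Jun, rose more and stayed up. The arrays of 0 h read -1.48, -1.07 and -1.90, and those of 0.5 h 2.22, 1.72 and 1.35, a 9.5-fold difference (SE 0.27 on the log2 scale). At 1 h they read 2.30, 1.97 and 2.25, 12.6-fold above 0 h. By 3 h they had dropped to 0.48, 1.13 and 1.46, below every array of 1 h. From there the level stayed where it was, with means of 0.99 ± 0.15 at 6 h and 1.02 ± 0.28 at 9 h (SD, n = 3), 5.56- and 5.66-fold above 0 h. All 15 arrays after 0 h stood above the 3 of 0 h.

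Jund, the JUN gene usually present in resting cells, was the one member whose arrays at 9 h all lay below those of 0 h. Its reported probe read 5.29, 5.75 and 5.31 at 0 h, and 5.77, 5.87 and 5.70 at 0.5 h, which overlapped since replicate 2 of 0 h was high. At 1 h the arrays read 5.93, 5.92 and 6.08, 1.44-fold above 0 h (SE 0.12 on the log2 scale) and above every array of 0.5 h. At 3 h they were back among those of 0 h, at 5.33, 5.47 and 5.38. They then fell at each step without overlap, to 4.94, 5.05 and 4.75 at 6 h and to 4.71, 4.68 and 4.47 at 9 h. The mean was 1.45-fold lower than at 0 h at 6 h and 1.77-fold lower at 9 h, with all 3 arrays below those of 0 h at both.

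The 3 probes listed under Jund read differently at the later time-points, and that difference was not tested. The zipper probe printed above was also up at 1 h, 2.04-fold, and 1.61- and 1.49-fold lower than 0 h at 6 h and 9 h. Its last step differed, since from 6 h to 9 h it went up by 0.11 with no overlap while the reported probe fell by 0.29. The opposite-strand probe read -0.79, -0.34 and -0.64 at 0 h, then 0.08, -0.16 and -0.10 at 1 h, and by 9 h -0.70, -0.45 and -0.69. It was thus up at 1 h as well (1.45-fold, no overlap), and its difference from 0 h at 9 h was -0.02 (SE 0.16). A probe of that orientation is set to measure a transcript of the strand opposite to Jund, and which transcript gave its signal was not tested. With the mean over the 3 probes in place of the reported one, the difference of Jund at 9 h was -0.47 and not -0.83.

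**Figure D2:**
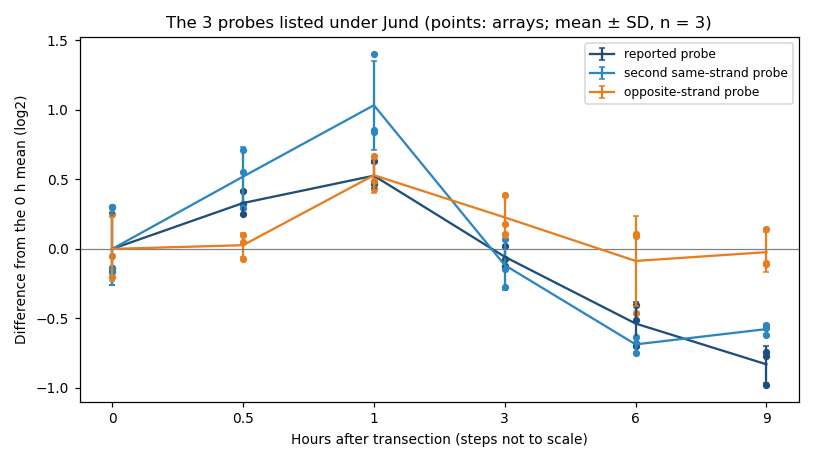
Difference of each of the 3 probes listed under Jund from its own mean at 0 h, on the log2 scale, against hours after transection. Points are arrays, lines and bars mean and SD of 3 arrays; at 9 h both same-strand probes lie below 0 h (-0.83 and -0.58) while the opposite-strand probe lies at -0.02.

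Atf3, which encodes a stress-induced bZIP factor, rose and came down in steps. The arrays read 2.99, 3.20 and 3.40 at 0 h, and 5.26, 5.15 and 4.97 at 0.5 h, a 3.82-fold difference (SE 0.12 on the log2 scale). At 1 h they read 5.42, 5.50 and 5.38, all above 0.5 h, and 4.71-fold above 0 h. They were 4.10, 4.45 and 4.42 at 3 h, then 3.96, 4.11 and 3.84 at 6 h, and 3.73, 3.68 and 3.68 at 9 h. The last 3 stood below every array of 6 h and above every array of 0 h, at a 1.42-fold difference.

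Set side by side, the genes differed in the time at which they first stood apart from 0 h. Fos, Fosb, Fosl2, Jun, Junb and Atf3 first had all 3 arrays above those of 0 h at 0.5 h, and Fosl1 and Jund at 1 h. For Jund this rested on replicate 2 of 0 h alone, which read 5.75 beside 5.77, 5.87 and 5.70 at 0.5 h. Jun had all 3 arrays above those of 0 h at 0.5 h and 1 h and Jund at 1 h, and neither did at a later time-point. The highest mean was at 0.5 h for Fos and Jun, at 1 h for Fosb, Fosl2, Junb, Jund and Atf3, and at 6 h for Fosl1. For Jund and Atf3 the arrays of 1 h stood apart from those of 0.5 h, the next highest time-point, which had another scan day, so that time-point and scan day cannot be told apart for that step, and for the other 6 genes they overlapped, so the order of neighbouring time-points at the top cannot be read for those. The arrays first stood below those of the highest time-point at 3 h for Fos, Jun, Junb, Jund and Atf3, at 6 h for Fosb and Fosl2, and at no time for Fosl1. From 1 h to 3 h, within 1 scan day, 5 genes had all 3 arrays below those of 1 h and Fosl1 had all 3 above, where this held for 14.8 and 13.7% of all probes. From 0.5 h to 1 h 3 genes (Fosl1, Jund and Atf3) had all arrays above and 0 all below, beside 10.3 and 9.89% of probes, again across scan days. From 3 h to 6 h Fos and Jund were the 2 below and 0 were above, beside 15.8 and 13.6%, and from 6 h to 9 h Jun, Jund and Atf3 were the 3 below and 0 were above, beside 8.74 and 11.3%. Against 1 h, 7 genes stood below and Fosl1 above at 6 h, beside 21.6 and 18.7% of probes, and 6 below and Fosl1 above at 9 h, beside 21.4 and 18.7%.

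The genes also differed in what was left at 9 h. On the linear scale, the part of the rise from 0 h to the highest mean that remained at 9 h was 84.4% for Fosl1, 55.6% for Fosl2, 40.2% for Junb, 26.5% for Fosb, 11.2% for Atf3 and 9.65% for Fos. That of Jun was -1.62%, its mean at 9 h being slightly under that of 0 h, and leaving out replicate 3 of 0 h made it -5.71% and leaving out replicate 2 made it 2.01%. The value of Fosl2 rested on replicate 3 of 1 h, without which the highest mean was that of 3 h and 84.4% was left. With normexp the part left was 14.5% for Fosb, close to the 13.8% of Atf3, and that of Jun was between -6.57% after a median shift and 0.777% in the deposited matrix. At 9 h Fosb was not called against 0 h. From the highest mean to 9 h the signal of Fos came down 8.78-fold, that of Jun 4.01-fold, that of Atf3 3.33-fold, that of Jund 2.56-fold and that of Junb 2.23-fold. For Fos and Jun the highest mean was at 0.5 h, on another scan day than 9 h, so time-point and scan day cannot be told apart there. From 1 h to 9 h their log2 differences were -2.88 and -1.96.

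**Figure D3:**
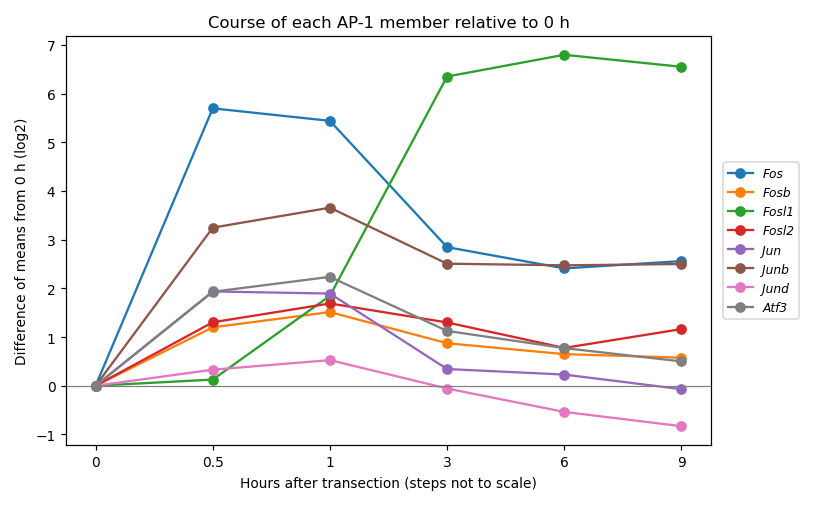
Difference of the mean of 3 arrays from the mean at 0 h, on the log2 scale, at each time-point for the 8 genes, with time-points evenly spaced on the horizontal axis. Fos leads until 1 h (5.69 and 5.44), Fosl1 from 3 h on (6.35, 6.79 and 6.55), and Jund ends at -0.83.

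At 0.5 h, 6 of the 8 genes were called by limma (P-value under 0.01 and adjusted P-value under 0.05), all higher, where 5.8% of all tested probes were called. At 1 h all 8 were called higher, beside 5.44% of probes called. At 3 h the count was 6, all higher (13.6% of probes), without Jun and Jund. At 6 h it was 6, of which 5 higher and Jund lower (24.5% of probes), and at 9 h again 6, of which 5 higher and Jund lower (30.6% of probes). The F-test over all time-points called 34.4% of probes and all 8 genes. Since the genes were picked for this pattern, nothing is read from these counts. In the order of time the members called were 4, 7, 5, 4 and 5 with normexp, 5, 8, 6, 4 and 6 in the deposited matrix, 5, 8, 6, 5 and 6 after quantile normalization and 6, 7, 6, 5 and 5 after a median shift. With slide as a random block they were 6, 8, 6, 6 and 6. All 3 arrays stood above those of 0 h for 6, 8, 6, 6 and 6 genes in the order of time, where this held for 18, 18.8, 21.6, 24.5 and 28.8% of all probes. All 3 stood below for 0, 0, 0, 1 and 1 genes, where this held for 14.7, 11, 16.5, 21.3 and 24.2% of all probes.

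Across the 18 arrays, which share the time-points and so are not independent of each other, Pearson's r between members ran from 0.94 for Atf3 and Fos and 0.92 for Atf3 and Jun down to -0.73 for Fosl1 and Jund. Fosl1 had no r above 0.21 with any other member. Among 3302 other named genes whose means spanned at least 1 log2 unit, those most like Fos in their course were Nfkbiz (r = 0.971), which encodes a nuclear IκB protein, Egr1 (0.967), an immediate early zinc finger factor, and Ccn1 (0.962), a matricellular protein. Most like Jun were Dusp1 (0.967), a phosphatase of MAP kinases, Btg2 (0.958) and Egr1 (0.946), and most like Atf3 were Egr1 (0.969), Sik1 (0.958) and Nfkbiz (0.954). Dusp1 had log2 differences from 0 h of 2.74 and 2.76 at the first pair of time-points and of 0.02 at the last.

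Those most like Junb were Plk3 (0.956), Socs3 (0.921), an inhibitor of cytokine signalling, and Zfp36 (0.92), a factor that destabilizes mRNA. Socs3 differed from 0 h by 3.09, 3.93, 3.35, 3.21 and 3.52 in the order of time, and so stayed up as Junb did. Most like Fosl1 were Plaur, the urokinase receptor, Gfap, an intermediate filament of non-myelinating SCs, and Sdc4, a syndecan (0.984 for each). Plaur differed from 0 h by 0.26, 0.93, 2.97, 3.02 and 2.90, and Gfap by 0.67, 1.35, 3.42, 3.51 and 3.56. For Fosb the nearest were Tecpr1 (0.909), Ror2 (0.888) and Ccnl1 (0.881), for Fosl2 Plk3 (0.904), Gdnf (0.881) and Fut7 (0.874), and for Jund Cxxc4 (0.94), Stard9 (0.929) and Erg28 (0.92). These correlations are descriptions of 18 arrays and carry no P-value.

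Of 33 other bZIP genes with which these proteins can share partners or sites, 30 were on the array and tested. The F-test called 16 of them, beside 34.4% of all probes. Called higher were 1, 6, 10, 13 and 14 genes in the order of time, beside 4.13, 3.57, 7.59, 12.4 and 15.9% of all probes called higher. The first genes called lower came at 6 h, 2 in number, and 9 h also had 2, beside 12.1 and 14.7% of probes called lower. The median difference of the 30 was 0.25, 0.19, 0.30, 0.69 and 0.59 on the log2 scale. The count of 6 at 1 h became 2 when either replicate 2 or replicate 3 of 0 h was left out, and 3 when replicate 3 of 1 h was. With normexp 7 and not 16 were called in the F-test, 0 and not 1 were higher at 0.5 h, 3 and not 6 at 1 h, and 9 and not 14 at 9 h, where 1 and not 2 was lower. With array weights 7 were higher and 1 lower at 0.5 h.

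Crem, which encodes a cAMP-responsive factor and its repressor forms, had the smallest adjusted P-value of these genes in limma's F-test (2.19e-05). It stood at 0.45 ± 0.23 at 0 h and 2.17 ± 0.23 at 3 h (SD, n = 3), a difference of 1.72 (SE 0.19, limma adjusted P-value 5.48e-05). Batf, a partner of JUN proteins in immune cells, went from -1.84 ± 0.15 to -0.40 ± 0.41 at 3 h, a difference of 1.45 (SE 0.20, limma adjusted P-value 0.000287). Atf1 and Creb1, factors that bind the cAMP response element, were up by 0.78 (SE 0.09) and 0.71 (SE 0.11) at 6 h, with limma adjusted P-values of 5e-05 and 0.00059. Creb1 was first called there, and Atf1 already at 3 h, at 0.32 (SE 0.09, limma adjusted P-value 0.0323). Lower at 9 h were Dbp, a circadian bZIP factor, at -1.34 (SE 0.31, limma adjusted P-value 0.00492), and Atf5, at -0.55 (SE 0.13, limma adjusted P-value 0.00612).

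Of 42 listed genes for kinases and SRF factors that act on the AP-1 genes, 34 were tested and 15 called in the F-test, beside 34.4% of all probes, and 6 with normexp. Higher were 2, 2, 5, 5 and 6 genes in the order of time, where 4.13, 3.57, 7.59, 12.4 and 15.9% of all probes were called higher. Lower were 0, 0, 3, 4 and 3, where 1.67, 1.87, 6.02, 12.1 and 14.7% of all probes were, and with normexp the 3 at 9 h became 1. Most of the 34 genes were called at none of the single time-points, and the median difference was between -0.04 and 0.06 at every time-point. A median shift gave 2 lower and not 0 at 0.5 h.

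Map3k8, a kinase upstream of ERK and JNK, was 1 of the 2 called higher at 0.5 h. It stood 0.88 above 0 h (SE 0.15, limma adjusted P-value 0.00482) and 1.32 at 1 h and at 3 h. The other was Mapk8ip3, a JNK scaffold of axonal transport, at 0.89 (SE 0.15, limma adjusted P-value 0.00543), named because the count was small. Map2k3, which activates p38, was 0.97 (SE 0.14) above 0 h at 3 h and 1.08 at 6 h, with limma adjusted P-values of 0.000591 and 0.00015. Rps6ka3, which encodes the kinase RSK2, was 1.12 (SE 0.16, limma adjusted P-value 0.000381) above 0 h at 3 h.

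Map2k6, the other main activator of p38, went down from 0.87 ± 0.09 at 0 h to -0.33 ± 0.34 at 9 h (SD, n = 3), by -1.21 (SE 0.13, limma adjusted P-value 1.97e-05). Map3k13, a relative of the axon injury kinase DLK, was at -0.58 (SE 0.11, limma adjusted P-value 0.00143) and Rps6ka5, which encodes MSK1, at -0.52 (SE 0.13, limma adjusted P-value 0.00649) against 0 h at 9 h. Before that, Rps6ka5 was called higher at 3 h, at 0.44 (SE 0.13, limma adjusted P-value 0.0333).

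Of 39 listed genes that textbooks name as switched on through AP-1 sites, 37 were tested and 29 called in the F-test, beside 34.4% of all probes. Higher were 9, 13, 23, 25 and 25 genes in the order of time, beside 4.13, 3.57, 7.59, 12.4 and 15.9% of all probes. Lower was 1 at each time-point, beside 1.67, 1.87, 6.02, 12.1 and 14.7% of all probes. The median differences were 0.26, 0.59, 1.13, 1.67 and 1.56 on the log2 scale, and 0.13, 0.25, 1.02, 1.57 and 1.56 with genes that were not well above background set to their bound. Fosl1 is itself such a gene and was left out of this list. Under normexp 17 and not 29 were called in the F-test, 8 and not 13 were higher at 1 h, and 18 and not 25 at 9 h.

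Those with the smallest adjusted P-values were secreted signals. Il6, a cytokine, was not well above background on any array of 0 h, so its folds are bounds, taken against the lowest signal well above background on those arrays. It was at least 13.7-fold higher at 0.5 h and at least 130-fold higher at 6 h, with limma adjusted P-values of 2.06e-08 and 1.46e-10. Cxcl1, which attracts neutrophils, was 5.57 (SE 0.20, limma adjusted P-value 1.62e-09) higher at 0.5 h and 6.39 at 3 h, and had come down to 4.89 at 9 h. Ccl2, which attracts monocytes, rose by 2.61 (SE 0.24, limma adjusted P-value 4.56e-05) at 0.5 h and by 5.09 at 3 h, and was 5.10 above 0 h at 9 h. Areg, a ligand of the EGF receptor, was not well above background at 0 h, 0.5 h or 1 h on any array, although it was among the genes called at 0.5 h and 1 h. It was at least 4.33-fold higher than 0 h at 3 h and at least 12.7-fold higher at 6 h, with limma adjusted P-values of 7.56e-07 and 1.67e-08. Il6 and Areg passed the filter only through time-points after 0 h. Their P-values were fitted to the signals as read, with those of 0 h not well above background, and not to the bounds.

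One target gene was called lower at each time-point, but not always the same one. Itga7, a laminin receptor chain, was the gene called lower at 9 h, at -0.32 (SE 0.10, limma adjusted P-value 0.0233), and was also lower at 6 h. At 0.5 h and 1 h the gene called lower was Tgfb1, at -0.64 (SE 0.13, limma adjusted P-value 0.0135) and -0.49 (SE 0.13, limma adjusted P-value 0.046), and at 3 h it was Ccnd1, at -0.68 (SE 0.10, limma adjusted P-value 0.00065). Tgfb1 was called higher at 9 h, at 0.41 (SE 0.13, limma adjusted P-value 0.0268). Tgfb1 and Ccnd1 were chosen after their values were seen. The call of Itga7 at 9 h was lost on leaving out replicate 2 of 0 h or any 1 of the 3 arrays of 9 h. The call of Tgfb1 at 0.5 h was lost on leaving out replicate 2 of 0 h or replicate 1 of 0.5 h, and its call at 1 h on leaving out most of the arrays singly.

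**Figure D4:**
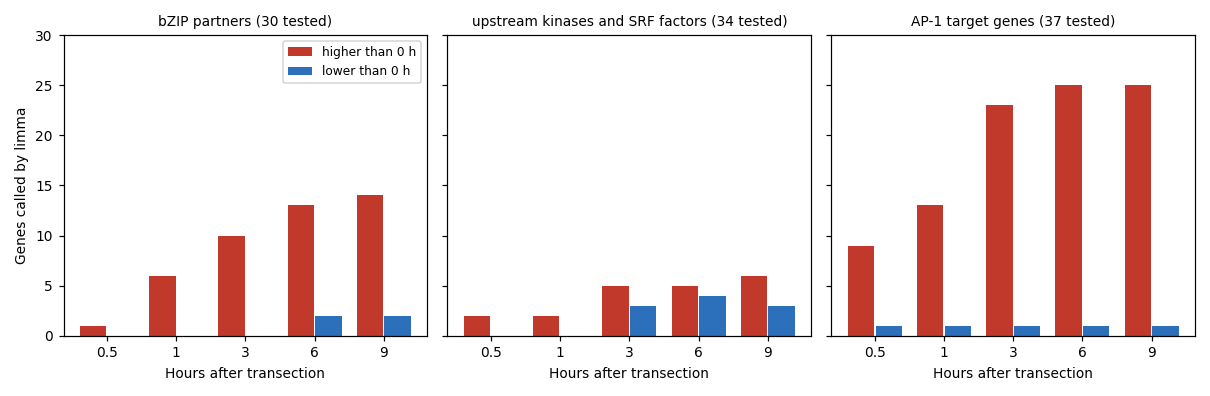
Number of genes that limma called higher or lower than at 0 h in each of 3 lists, against hours after transection. Higher calls reach 14 of 30 bZIP partners, 6 of 34 kinases and SRF factors and 25 of 37 AP-1 target genes at 9 h.

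The RNA of cell type markers in the segment changed over the same hours. The summed linear level of the 7 tested of 8 listed neutrophil markers, in units of the 75th percentile of the array, ran from 0.35 to 0.613 at 0 h. It reached 2.08 to 4.54 at 0.5 h, with 2.09 to 4.12 at 1 h, then 7.7 to 23 at 3 h, 14.6 to 23 at 6 h and lastly 18.2 to 21.9 at 9 h. Of 7 tested, 3 were called higher at 0.5 h and 1 h and 6 from 3 h on, beside the shares of probes called higher given above, and the defining markers S100a8 and S100a9 were well above background on all 18 arrays. The sums of 0.5 h all lay above those of 0 h, in the hours when Fos, Jun, Junb and Atf3 were up and Fosl1 still overlapped 0 h, and the higher sums from 3 h on came with the higher values of Fosl1 and of the AP-1 target genes. The part of neutrophils in any of these was not tested. Of 14 SC markers tested, 2 were called higher and 4 lower at 9 h, where 15.9 and 14.7% of all probes were called. The sum for 6 fibroblast markers went from 1400 to 1490 at 0 h to 972 to 1030 at 9 h, where 5 were called lower, beside the same 14.7% of probes. The size of this fall depended on the scaling. The median log2 difference of these 6 markers at 9 h was -0.52, and -0.13 after quantile normalization, -0.5 with normexp and -0.7 after a median shift. For 6 endothelial markers the 0 h arrays summed to between 56 and 61.1 and those of 9 h to between 41.1 and 42.3, with 2 of the 6 called lower. The part of these changes in that of Jund was not tested. At 0.5 h all 3 sums lay above all 3 of 0 h for erythroid cells (13.9 to 20.6 against 1.92 to 12), adipocytes (35.5 to 45.3 against 13.4 to 33.7) and macrophages (215 to 238 against 182 to 212). Of single probes, 18% had all 3 arrays of 0.5 h above all 3 of 0 h. The 2 erythroid, 4 adipocyte and 9 macrophage markers tested had median log2 differences of 1.57, 0.94 and -0.06. In each of these lists 0 markers were called higher and 0 lower at 0.5 h. The part of these cells in the early rise of the members was not tested. S100b, a marker of SCs, was well above background on all 18 arrays. The sum for skeletal muscle was 1460 in replicate 1 of 0 h and 88.2 and 127 in the other two, and 2.96 to 390 later, with no marker called. The part of muscle RNA in the values of the members was not tested.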

How the data were processed

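RNA of proximal sciatic nerve was measured on 18 Agilent arrays of 1 colour, 3 at each of 6 time-points taken from the labels. The authors deposited the scanner output, a linear intensity for each spot with background subtracted and trends removed by Feature Extraction (version 10.5.1.1 in the files), and a matrix of log2 values that hold the same distribution on every array. How that matrix was normalized is not given in the sources used here, and it ranks the probes of an array in the order of the scanner signals. Spot flags were used as deposited.

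Control and outlier spots were left out, log2 signals were taken relative to the 75th percentile of the array, and spots of a probe were averaged. A probe needed 3 arrays well above background in 1 or more of the time-points, which left 32111 of 41012 probes, tested with limma (3.58.1, R 4.3.3), all time-points in 1 model. A call needed P under 0.01 and a Benjamini-Hochberg adjusted P under 0.05. A gene was given by its tested probe with the highest mean. The r between arrays of a time-point was 0.976 to 0.992, 65.9 to 93.5% of spots were well above background, and precision is limited by the number of arrays. The fit was tested on simulated data.

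The members, lists and tests were chosen with earlier results of these data known. Named are the 8 members, the 4 genes of each list with the smallest adjusted P in the F-test and up to 3 called lower at 9 h, the 3 genes most like each member, and exceptions said to be such. Alternatives were normexp (offset 50), quantile and median scaling, the deposited matrix, other filters and thresholds, blocks, array weights, a trended prior, fits to 6 arrays, the mean over the probes of a gene, and leaving out each array. Gene names came from the files and, by accession, from RefSeq (GRCr8), and figures were drawn with matplotlib (Python) from these values. The level of 1 listed marker is not given here.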

Additional observations from a re-analysis of the deposited data

How the results depend on the processing

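Of 64 differences between time-points of the 8 members, 15 moved by more than the spread between arrays under normexp background correction, 4 with the deposited matrix, 2 after quantile normalization, 1 after a median shift and 0 with array weights, and the cause was not tested. Of the 8 of Jund, the gene with several probes, 3 did so with the mean over its probes. Leaving out an array of either time-point compared gave 384 values, of which 0 moved by more. That count was fixed in advance, since leaving out 1 of 3 arrays cannot shift their mean by their spread, and nothing is read from it. Filters leave the values of a probe as they are. The sign turned in 12 of these 712 values, for Fosl1 at 0.5 h, Jun at 9 h and Jund at 3 h, each against 0 h, and for Fosl2 at 3 h against 1 h. The precision is limited by 3 arrays a time-point and, for low probes, by the signal over background. With a change of at least 2-fold required, 3 members were called at 6 h; bZIP partners gave 9 in the F-test, and 8 higher and 1 lower at 9 h; kinases and SRF factors gave 5 in the F-test, 0 higher at 0.5 h, 1 at 1 h, with 1 higher beside 1 lower at 9 h; AP-1 target genes gave 0 lower at 0.5 h, 1 h and 9 h. With normexp, bZIP partners gave 7 in the F-test, 0 higher at 0.5 h, 3 at 1 h, with 9 higher beside 1 lower at 9 h; kinases and SRF factors gave 6 in the F-test, 1 higher at 0.5 h and 1 lower at 9 h; target genes gave 17 in the F-test, 8 higher at 1 h, and 0 lower at 0.5 h, 1 h and 9 h. With array weights, bZIP partners gave 7 higher and 1 lower at 0.5 h, kinases and SRF factors 4 higher and 1 lower at 0.5 h and 5 lower at 9 h, and target genes 2 lower at 9 h. After a median shift, kinases and SRF factors gave 2 lower at 0.5 h and 5 at 9 h, and target genes 2 lower at 9 h. The target genes lower at 9 h were 0 with the deposited matrix and with quantile normalization, and those lower at 1 h 0 with no filter. With only the 6 arrays of a contrast, bZIP partners gave 0 higher at 0.5 h and 1 lower at 9 h, and target genes 0 lower at 0.5 h, 1 h and 9 h. The bZIP partners higher at 0.5 h were 2 with scan day or slide as a block, with a trended prior (which gave 1 lower) and with the filter that asks for all 18 arrays above background.

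Leaving out each array in turn gave 7 to 8 members in the F-test, and 5 to 6, 7 to 8, 4 to 6, 5 to 7 and 5 to 7 in the order of time. It gave 15 to 18 bZIP partners in the F-test, 1 to 2 higher at 0.5 h, 2 to 6 at 1 h and 13 to 14 at 9 h. It gave 10 to 17 kinases and SRF factors in the F-test, and 26 to 30 target genes, of which 0 to 1 were lower at 0.5 h, 1 h and 9 h. The count of members at 3 h was 4 without replicate 2 or replicate 3 of 3 h.

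Replicate numbers are shared by the time-points, but nothing in the labels says that they pair arrays. The median correlation of deviations was 0.07 between arrays of the same number (-0.26 to 0.56) and 0.01 between those of different numbers, and 10 of 18 arrays correlated best with their own number. With the replicate block, 8 members were called in the F-test, and 6, 8, 6, 5 and 6 in the order of time, and 18 bZIP partners, 15 kinases and SRF factors and 30 target genes in the F-test.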
